A study of Mus musculus with 9 samples.

Results

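Glucose uptake, glycolysis and glycogen were followed through 39 genes of the mouse heart, taken from the count table by gene symbol. All 39 symbols were among the 24964 in the table, and 37 of them passed the filter on low counts and were tested. The genes were chosen by what their products do, and the rule uses no measured value, but earlier results of these data were known at the time. Bulk RNA sequencing covered 9 male C57BL/6JR mice, 8 weeks old, with 1 heart library for each. In 6 of them the left anterior descending coronary artery, which feeds much of the left ventricle, was tied off to cause a myocardial infarction (MI), and hearts were taken 7 d later (MI 7 d, 3 mice) or 28 d later (MI 28 d, 3 mice). The other 3 mice had the same anaesthesia and chest opening with no tie (sham). The labels name the tissue only as heart, so the share of infarct, border and distant muscle in each library is not known, and they give no harvest time for the sham hearts.

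Glucose enters cells through the GLUT carriers of the Slc2a family, is trapped by hexokinases, and is then either stored as glycogen or broken down to pyruvate, which lactate dehydrogenase can turn into lactate for export. Most steps are served by several genes, 1 of them typical of striated muscle (GLUT4, hexokinase 2, muscle phosphofructokinase, beta-enolase, muscle glycogen phosphorylase) and others typical of other cells. The adult heart burns mainly fatty acids and takes up both glucose and lactate, and activated fibroblasts and macrophages are known for a high glycolytic flux.

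The count total was 12351525 to 13629120 for sham libraries, 18355720 to 19238101 for MI 7 d and 15300344 to 15770389 for MI 28 d. Levels are given as CPM, counts relative to the library total after scaling by TMM (trimmed mean of M values), as the 3 libraries in replicate order or as mean ± SD (n = 3). The sham libraries were much more alike than the others, with a biological coefficient of variation of 2.73% against 17% at 7 d and 24.2% at 28 d. The levels of cell type markers differed between the groups. All 15 cardiomyocyte markers were lower at 7 d than in sham hearts (edgeR adjusted p under 0.05, the threshold used throughout), and their summed level was 145100 to 149000 CPM in the sham libraries, 24300 to 30320 CPM at 7 d and 53780 to 90830 CPM at 28 d. All 12 fibroblast markers were higher at 7 d (summed 2463 to 2528, 37660 to 49070 and 6679 to 12850 CPM in the 3 groups), as were all 12 monocyte and macrophage markers (392 to 438, 3239 to 3899 and 861 to 1196 CPM). None of the 12 fibroblast or 12 macrophage markers was at 0 in a whole group. Adipocyte markers (7 genes, none at 0 in a whole group) were high in 3 libraries only, with 1644 CPM in MI 7 d replicate 3 and 1323 and 1067 CPM in MI 28 d replicates 1 and 3, against 64.1 to 273 CPM in the other libraries. The haemoglobin genes Hba-a1, Hba-a2, Hbb-bs and Hbb-bt were at 0 in every library.

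To show the DNA in front of genes that serve the same step and moved differently, the 250 bases before the start site are printed for 3 isoform pairs. The sequences are RefSeq's on GRCm38.p6 (the mm10 build), each read 5′ to 3′ along its gene's strand. Capitals mark every ACGTG (the core of the hypoxia response element) and every GCGTG (its common variant), on either strand, so that they also appear as CACGT and CACGC. The lactate carriers Slc16a1 (chr3:104638414-104638663, plus strand), which fell after MI, and Slc16a3 (chr11:120948817-120949066, plus strand), which rose, are followed by the phosphoglycerate mutases Pgam2 (chr11:5803797-5804046, minus strand), which fell, and Pgam1 (chr19:41911621-41911870, plus strand), which rose. The lactate dehydrogenases Ldhb (chr6:142507958-142508207, minus strand) and Ldha (chr7:46845554-46845803, plus strand, the first of 2 listed starts) close the set.
Slc16a1: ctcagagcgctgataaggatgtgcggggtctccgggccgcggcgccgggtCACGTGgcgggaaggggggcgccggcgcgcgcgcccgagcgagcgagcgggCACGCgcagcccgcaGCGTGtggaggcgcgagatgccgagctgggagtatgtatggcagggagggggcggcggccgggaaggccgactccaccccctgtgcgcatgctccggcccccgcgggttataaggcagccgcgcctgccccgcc
Slc16a3: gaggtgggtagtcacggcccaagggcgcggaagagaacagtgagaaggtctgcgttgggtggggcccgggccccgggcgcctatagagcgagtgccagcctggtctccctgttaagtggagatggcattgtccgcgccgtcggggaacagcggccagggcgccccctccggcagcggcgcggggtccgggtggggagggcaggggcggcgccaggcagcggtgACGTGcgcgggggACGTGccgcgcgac
Pgam2: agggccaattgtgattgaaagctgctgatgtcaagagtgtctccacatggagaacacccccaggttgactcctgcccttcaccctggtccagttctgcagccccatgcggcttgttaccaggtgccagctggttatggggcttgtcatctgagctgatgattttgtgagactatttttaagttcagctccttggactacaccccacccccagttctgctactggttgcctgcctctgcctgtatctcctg
Pgam1: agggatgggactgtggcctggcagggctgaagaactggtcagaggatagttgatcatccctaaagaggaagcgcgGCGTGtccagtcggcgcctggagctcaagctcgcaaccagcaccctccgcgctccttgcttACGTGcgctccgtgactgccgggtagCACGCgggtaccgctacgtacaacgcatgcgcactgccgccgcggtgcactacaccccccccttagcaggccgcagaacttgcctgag
Ldhb: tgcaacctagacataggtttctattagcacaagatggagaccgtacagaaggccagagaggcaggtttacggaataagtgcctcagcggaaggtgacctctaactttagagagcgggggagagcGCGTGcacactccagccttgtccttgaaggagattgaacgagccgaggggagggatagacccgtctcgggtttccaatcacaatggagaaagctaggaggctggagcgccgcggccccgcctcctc
Ldha: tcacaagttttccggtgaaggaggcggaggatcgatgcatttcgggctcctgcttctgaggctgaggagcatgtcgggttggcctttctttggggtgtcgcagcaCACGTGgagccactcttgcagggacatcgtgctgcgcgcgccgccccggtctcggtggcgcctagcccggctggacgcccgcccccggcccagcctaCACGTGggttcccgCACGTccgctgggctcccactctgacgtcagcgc
In these windows Ldha held 5 matches, Slc16a1 4, Pgam1 3, Slc16a3 2, Ldhb 1 and Pgam2 0, where the palindrome CACGTG counts once on each strand. The windows of 300 bases in the RefSeq table, which run from 250 bases before to 50 after a start, held 37 of the 39 genes. At any listed start, ACGTG was present in 56.8% of these 37 and 21.8% of all 27025 genes of the table. GCGTG was present in 59.5% against 35.2%, the E-box CACGTG, which contains ACGTG, in 16.2% against 8.09%, and the GC box GGGCGG in 64.9% against 38.2%. ACGTG or GCGTG was present in 78.4% of the 37 and 46.7% of all genes of the table. Of the 10 genes in the table that were higher at 7 d, 9 held ACGTG or GCGTG, as did 17 of 23 that were lower. These are matches of letters, and binding was not measured. Slc2a3 and Slc2a4 were the members not matched.

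The comparison of MI 7 d with sham hearts asks which genes of glucose handling differed a week after the artery was tied. The summed level of the 39 genes was 26976 ± 285 CPM in the sham libraries, 9015 ± 1031 CPM at 7 d and 17469 ± 2637 CPM at 28 d, which is 33.4% and 64.8% of sham. At 7 d 24 of the 37 tested genes were lower than in sham hearts, against 35.4% of all 14347 tested genes, and 11 were higher, against 39%. In either direction 35 of 37 passed, against 74.4% of all tested genes. The groups did not overlap for 35 of the 37 genes, against 80.8% of all tested genes. The median log2 fold change (log2 FC) of the 37 genes was -0.77, against 0.06 over all tested genes. The 11 higher genes were Slc2a1, Slc2a3, Hk3, Pfkp, Pfkfb3, Pfkfb4, Aldoc, Pgam1, Eno2, Slc16a3 and Pygl, and only Slc2a8 and Pfkfb1 did not pass the test. In a bulk sample, fewer cells of a type and less RNA per cell cannot be told apart, and the part of the marker shifts given above in these differences was not tested. With library size alone as the scaling, the median log2 FC of all genes moved up by 0.33 at 7 d, and the share of calls that were higher went from 52.5% to 67.4%, while 23 of the 37 genes were still lower and 11 higher.

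The comparison of MI 28 d with the same sham libraries asks what differed at the later time. At 28 d 18 of 37 genes were lower, against 25.6% of all tested genes, and 11 were higher, against 29.5%, or 29 of 37 in either direction, against 55.1%. Groups did not overlap for 30 of 37 genes, against 66.4% of all tested genes, and the median log2 FC was -0.31, against 0.05 over all tested genes. Hk1 was among the 11 higher genes here and among the lower genes at 7 d. When the 3 sham libraries, which differed so little, were summed to 1, 11 genes were lower and 5 higher. That fit has a single sham sample, which is assumed to vary like the MI groups, and in it Slc2a3, Hk1, Hk3, Pfkp, Aldoc, Pygl, Aldoa, Tpi1, Gapdh, Pkm, Slc16a1, Pygb and Ugp2 no longer passed at 28 d. With library size alone 13 were lower and 14 higher, the median of all genes moved up by 0.25, and the share of calls that were higher went from 53.5% to 74%.

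Between the MI groups, 25 of 37 genes were higher at 28 d than at 7 d, against 29.1% of all tested genes, and 3 were lower, against 26.1%, or 28 of 37 in either direction, against 55.2%. Groups did not overlap for 29 of 37 genes, against 59.8% of all tested genes, and the median log2 FC was 0.74, against 0.03 over all tested genes. The 3 lower genes were Hk3, Pfkfb4 and Slc16a3. Without MI 28 d replicate 3 the count of lower genes was 6, and without the 3 libraries rich in adipocyte markers it was 7. Leaving those 3 out leaves 2 MI 7 d libraries and 1 MI 28 d library (replicate 2), so every value at 28 d given without the adipocyte-rich libraries rests on that 1 heart, which is assumed to vary like the other groups. The 15 cardiomyocyte markers were all higher at 28 d than at 7 d and the 12 macrophage markers all lower, and their part in these counts was not tested. All 3 comparisons share libraries, so their values are set side by side below and are not independent.

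**Figure D1:**
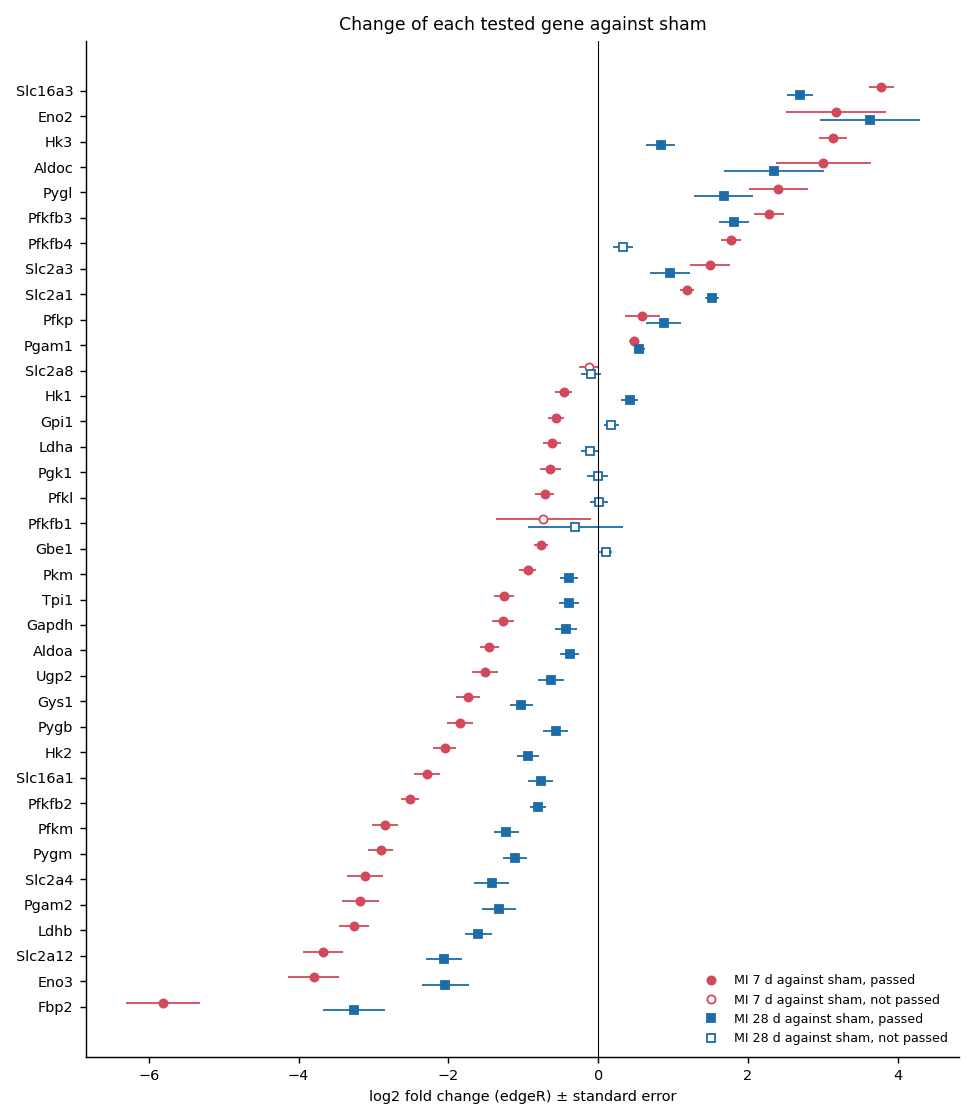
Log2 fold change against sham (x axis, edgeR, ± standard error) of each of the 37 tested genes (y axis, ordered by the change at 7 d), at 7 d (circles) and 28 d (squares), with filled symbols for an adjusted p under 0.05. At 7 d 11 genes lie to the right of 0 and pass and 24 lie to the left and pass, from Slc16a3 at 3.78 to Fbp2 at -5.81.

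Glucose carriers changed in opposite directions. Slc2a4 encodes GLUT4, the insulin-responsive carrier of muscle and fat. It stood at 581, 581 and 609 CPM in the sham libraries, 76.4, 55.7 and 72 CPM at 7 d and 309.7, 199 and 152 CPM at 28 d. All 3 MI 7 d hearts lay below all MI 28 d hearts, and these below all sham hearts. Slc2a4 was 8.67-fold lower at 7 d (log2 FC -3.12 ± 0.24, edgeR adjusted p = 2.24e-06) and 2.68-fold lower at 28 d. Slc2a1 encodes GLUT1, the basal carrier of most cell types, and stood at 16.4, 18.9 and 19.3 CPM in the sham libraries, 41.8, 41.9 and 40.3 CPM at 7 d and 47.3, 55.1 and 53.8 CPM at 28 d. It was lowest in sham hearts and highest at 28 d, with no overlap between any of the groups. It was 2.27-fold higher at 7 d and 2.86-fold higher at 28 d, and its rise from 7 d to 28 d (log2 FC 0.33) missed the threshold with library size alone (0.25, edgeR adjusted p = 0.062).

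Slc2a12, which encodes the carrier GLUT12, fell 12.8-fold from 14.7, 15 and 14.8 CPM to 1.44, 1.19 and 0.818 CPM at 7 d. At 28 d it stood at 4.78, 2.54 and 3.36 CPM, 4.16-fold below sham, between the other groups and apart from both. Without the adipocyte-rich libraries its rise from 7 d to 28 d was 0.94 on the log2 scale, against 1.62 with all libraries. Slc2a3, the GLUT3 gene known from neurons and leukocytes, was low throughout, with 3.14, 1.56 and 2.2 CPM in the sham libraries, 6.25, 6.14 and 7.17 CPM at 7 d and 4.45, 3.41 and 5.56 CPM at 28 d. No sham library reached the level of any MI library. The gene was 2.82-fold higher at 7 d and 1.94-fold higher at 28 d, but the difference at 28 d was lost without sham replicate 2 (log2 FC 0.73, edgeR adjusted p = 0.0546), without sham replicate 3 (0.91, 0.0518) and, with 1 MI 28 d library left, without the adipocyte-rich libraries (0.55, 0.195). Its difference between 28 d and 7 d (-0.54, not passed) passed without MI 28 d replicate 3 (-0.73, edgeR adjusted p = 0.0305) and, with 1 MI 28 d library left, without the adipocyte-rich libraries (-0.86, 0.0432). Slc2a8, which encodes the intracellular carrier GLUT8, stood at 22 ± 1.56, 20.2 ± 2.87 and 20.5 ± 2.56 CPM and passed in none of the comparisons.

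Hexokinases showed 3 different courses. Hk2, the insulin-responsive hexokinase of muscle, went from 576, 561 and 596 CPM in the sham libraries to 138, 138 and 141 CPM at 7 d and 379, 292 and 233 CPM at 28 d. The groups did not overlap, and the fall was 4.15-fold at 7 d and 1.92-fold at 28 d. Hk1, the widely expressed form that sits on the mitochondrial surface, stood at 346, 324 and 355 CPM in the sham libraries, 265, 248 and 230.1 CPM at 7 d and 452, 523 and 397 CPM at 28 d. It was lowest in the 7 d hearts and highest in the 28 d hearts, with the sham hearts between them and no overlap. Its log2 FC was -0.46 ± 0.11 at 7 d (edgeR adjusted p = 0.00385), 0.42 ± 0.11 at 28 d and 0.88 ± 0.11 from 7 d to 28 d. The fall of Hk1 at 7 d did not pass with library size alone (-0.13, edgeR adjusted p = 0.251) or with the sham libraries summed to 1 (-0.50, 0.0501), where the rise at 28 d did not pass either (0.38, edgeR adjusted p = 0.171). Hk3, a hexokinase known from myeloid cells, rose from 1.74, 2.67 and 2.28 CPM to 17, 19.2 and 22.8 CPM at 7 d and stood at 3.72, 4.4 and 3.82 CPM at 28 d. It was 8.8-fold higher than sham at 7 d, 1.78-fold higher at 28 d, and 4.93-fold lower at 28 d than at 7 d. The 12 macrophage markers summed to 392 to 438 CPM, 3239 to 3899 CPM and 861 to 1196 CPM in the same groups, and their part in the course of Hk3 was not tested. Gpi1, which converts glucose 6-phosphate to fructose 6-phosphate, fell 1.48-fold at 7 d from 908 ± 11.5 to 615 ± 64.9 CPM and stood at 1026 ± 70.7 CPM at 28 d, which did not pass except with library size alone (log2 FC 0.42, edgeR adjusted p = 0.00324).

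Phosphofructokinase, the committed step of glycolysis, is built from 3 genes. Pfkm, the muscle subunit, stood at 1820.2, 1770.1 and 1878 CPM in the sham libraries, 281, 256 and 223 CPM at 7 d and 957, 793 and 584 CPM at 28 d. The groups were far apart, and Pfkm was 7.2-fold lower at 7 d and 2.34-fold lower at 28 d. Pfkl, the liver-type subunit, stood at 201, 193 and 192 CPM, 134, 108 and 114 CPM and 220.5, 208 and 163 CPM. It was 1.64-fold lower at 7 d, and at 28 d its libraries lay on both sides of the sham libraries (log2 FC 0.01, edgeR adjusted p = 0.934). Pfkp, the platelet-type subunit, stood at 116, 107 and 110.3 CPM, 187, 153 and 161 CPM and 122, 267 and 223 CPM. Every MI heart exceeded every sham heart, but at 28 d replicate 1 lay close to sham and well below the other 2. Pfkp was 1.5-fold higher at 7 d (log2 FC 0.59 ± 0.23, edgeR adjusted p = 0.0421) and 1.83-fold higher at 28 d. The call at 7 d was lost without sham replicate 1, 2 or 3 and without MI 7 d replicate 1, 2 or 3 (log2 FC 0.50 to 0.65, edgeR adjusted p = 0.058 to 0.123), with size factors as in DESeq2 (0.55, 0.0535) and with the sham libraries summed to 1 (0.56, 0.252). Without MI 28 d replicate 1 the difference of Pfkp between 28 d and 7 d passed (0.55, edgeR adjusted p = 0.0031), as it did with the 1 MI 28 d library that is not adipocyte-rich (0.65, 0.00116).

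The bifunctional Pfkfb enzymes make and break fructose 2,6-bisphosphate, the strongest activator of phosphofructokinase. Pfkfb2, the heart form, stood at 209.8, 198 and 197 CPM in the sham libraries, 32.1, 41.5 and 32.3 CPM at 7 d and 108, 125 and 113 CPM at 28 d, with no overlap. It was 5.71-fold lower at 7 d and 1.75-fold lower at 28 d. Pfkfb3, the inducible form with the highest ratio of kinase to phosphatase activity, rose from 11.3, 11.1 and 13.9 CPM to 46, 55.6 and 74.5 CPM at 7 d and 42.5, 34.8 and 50.1 CPM at 28 d. All MI hearts lay above all sham hearts, while the MI groups overlapped. Pfkfb3 was 4.84-fold higher at 7 d and 3.5-fold higher at 28 d, and its difference between them (-0.47, edgeR adjusted p = 0.0549) passed without MI 7 d replicate 1 (-0.62, 0.0199) and without MI 28 d replicate 3 (-0.60, 0.019). That difference of Pfkfb3 also passed with DESeq2 (adjusted p = 0.0421) and, by edgeR, with library size alone (adjusted p = 0.0427), with the stricter filter (0.0483) and, with 1 MI 28 d library left, without the adipocyte-rich libraries (0.013). Pfkfb4, a form known from testis and tumour cells, rose 3.4-fold from 7.58 ± 0.374 to 25.8 ± 0.385 CPM at 7 d and stood at 9.5 ± 1.68 CPM at 28 d. At 28 d it did not pass against sham (log2 FC 0.33, edgeR adjusted p = 0.0664), except without MI 28 d replicate 1 (0.46, 0.00441), without the adipocyte-rich libraries (0.47, 0.0232, with 1 MI 28 d library left) or with library size alone (0.58, 0.00986). Pfkfb1, known from liver and skeletal muscle, stood at 5.85, 7.17 and 7.61 CPM in the sham libraries, 2.41, 2.82 and 7.17 CPM at 7 d and 8.76, 0.993 and 6.95 CPM at 28 d and passed in no comparison. Its 3 high MI libraries were those rich in adipocyte markers, and the other 3 MI libraries all lay below the sham libraries.

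**Figure D2:**
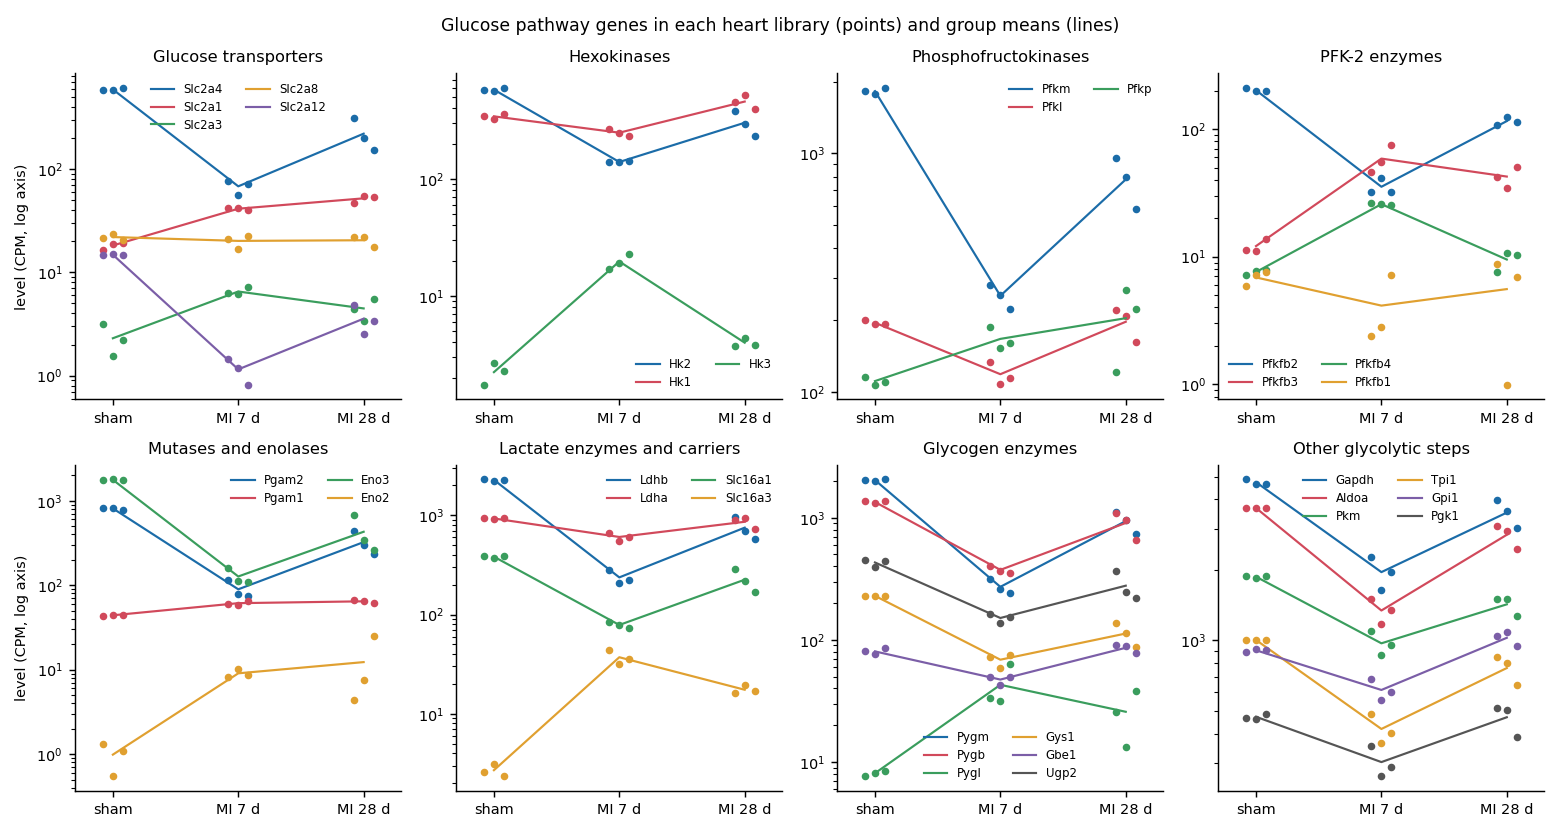
Level of 35 of the genes in each library (points, CPM on a log axis) with group means (lines), for sham, MI 7 d and MI 28 d hearts on the x axis, in panels by step; Aldoc, Eno1, Fbp1 and Fbp2 are not drawn. The muscle-type or heart-type genes Slc2a4, Pfkm, Pgam2, Eno3, Ldhb and Pygm drop at 7 d and stand between the other groups at 28 d. Slc16a3, Hk3 and Pfkfb3 are lowest in sham hearts.

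The enzymes that split fructose bisphosphate and oxidise the triose phosphates were lower at 7 d, with 1 exception. Aldoa, the main aldolase of muscle, stood at 3679, 3686 and 3657 CPM in the sham libraries, 1503, 1181 and 1342 CPM at 7 d and 3082, 2926 and 2463 CPM at 28 d, with no overlap. It was 2.74-fold lower at 7 d and 1.3-fold lower at 28 d. Tpi1, the triose phosphate isomerase, fell 2.4-fold from 1004 ± 2.81 to 419 ± 61.7 CPM at 7 d. Gapdh, the dehydrogenase often used as a reference gene, fell 2.42-fold from 4735 ± 115 to 1957 ± 311 CPM, and Pgk1, the phosphoglycerate kinase, fell 1.56-fold from 472 ± 11.1 to 303 ± 47.4 CPM. At 28 d Tpi1 stood at 762 ± 107, Gapdh at 3512 ± 480.2 and Pgk1 at 470.1 ± 70.8 CPM, and Pgk1 did not pass. The brain-type aldolase Aldoc was the exception, with 0.262, 0 and 0.254 CPM in the sham libraries, 0.914, 1.73 and 1.73 CPM at 7 d and 0.73, 0.682 and 1.33 CPM at 28 d. It was higher at 7 d (log2 FC 3.00 ± 0.63) and 28 d (2.34 ± 0.67) with no overlap, on a base of only 6 counts over the 3 sham libraries. At 28 d it did not pass without the adipocyte-rich libraries (1.90, edgeR adjusted p = 0.112), when 1 MI 28 d library is left.

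The calls of Aldoa, Tpi1 and Gapdh at 28 d lay near the threshold (log2 FC -0.38, -0.40 and -0.43, edgeR adjusted p = 0.0275, 0.0293 and 0.0303). Each was lost without sham replicate 1, 2 or 3, with edgeR adjusted p of 0.0613 to 0.064 for Aldoa, 0.0621 to 0.0655 for Tpi1 and 0.0618 to 0.078 for Gapdh. By the same test Aldoa was also lost without MI 28 d replicate 2 (edgeR adjusted p = 0.053) and Tpi1 without MI 28 d replicate 3 (0.0633). Gapdh was lost without MI 7 d replicate 3 (edgeR adjusted p = 0.0512), MI 28 d replicate 2 (0.0667) or MI 28 d replicate 3 (0.0532). With library size alone none of the 3 passed at 28 d (log2 FC -0.14, -0.16 and -0.19). Aldoa and Gapdh also missed with only the libraries compared in the fit (edgeR adjusted p = 0.0564 and 0.0509), and Aldoa and Tpi1 with the 1 MI 28 d library that is not adipocyte-rich (0.0514 and 0.0645).

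Lower glycolysis was split between its isoform genes. Pgam2, the muscle phosphoglycerate mutase, stood at 829.8, 820.3 and 781 CPM in the sham libraries, 116, 78.1 and 74 CPM at 7 d and 436, 299.9 and 235 CPM at 28 d. It was 9.06-fold lower at 7 d (log2 FC -3.18 ± 0.25) and 2.5-fold lower at 28 d, with no overlap. Pgam1, the form of most other tissues, rose from 43, 44.1 and 44.9 CPM to 60.6, 58.3 and 64.8 CPM at 7 d and 66.5, 65 and 61.8 CPM at 28 d. All MI hearts exceeded all sham hearts, by 1.39-fold at 7 d and 1.46-fold at 28 d, and the MI groups overlapped. Eno3 encodes beta-enolase, the enolase of striated muscle. It went from 1741, 1789 and 1772 CPM to 159, 111 and 109.7 CPM at 7 d and 677, 346 and 263 CPM at 28 d, where replicate 1 stood well above the other 2. Eno3 was 13.9-fold lower at 7 d (log2 FC -3.80 ± 0.34, edgeR adjusted p = 4.75e-06) and 4.12-fold lower at 28 d, with no overlap.

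Eno2, the neuron-type gamma-enolase, was low in sham hearts, with 1.31, 0.552 and 1.1 CPM, and stood at 8.13, 10.3 and 8.71 CPM at 7 d and 4.31, 7.51 and 25 CPM at 28 d. All MI hearts lay above all sham hearts, and MI 28 d replicate 3 was far above the other MI 28 d hearts. Eno2 was 9.05-fold higher at 7 d and 12.3-fold higher at 28 d (log2 FC 3.62), or 2.57 on the log2 scale at 28 d without MI 28 d replicate 3. In that library the 7 Schwann cell and neuron markers summed to 280 CPM, against 36.4 and 51.7 CPM in the other MI 28 d libraries, 43.4 to 47.1 CPM at 7 d and 11.8 to 16.2 CPM in the sham libraries, with Th at 0 in the sham group. Their part in the level of Eno2 was not tested. Pkm, the pyruvate kinase of muscle and most other tissues, whose M1 and M2 splice forms a count per gene does not separate, fell 1.92-fold at 7 d from 1870.0 ± 24.1 to 972 ± 117 CPM and was 1.31-fold lower at 28 d. The fall of Pkm at 28 d was lost with library size alone (log2 FC -0.15, edgeR adjusted p = 0.216) and, with 1 MI 28 d library left, without the adipocyte-rich libraries (-0.33, 0.0567). Eno1, the alpha-enolase of most cells, was listed at 0 in 7 libraries and at 1 count in the other 2, and 72.2% of its transcript's 50-base stretches were also found in transcripts of other genes, so no level of Eno1 is given.

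At the lactate step both dehydrogenase genes were lower at 7 d, Ldhb by more than Ldha. Ldhb encodes the heart subunit of lactate dehydrogenase, which favours the use of lactate. It stood at 2300.5, 2227 and 2292 CPM in the sham libraries, 281, 206 and 224 CPM at 7 d and 965, 702 and 583 CPM at 28 d. The groups did not overlap, and Ldhb was 9.6-fold lower at 7 d (log2 FC -3.26 ± 0.20) and 3.03-fold lower at 28 d. Ldha, the subunit of glycolytic tissues, stood at 929, 916 and 941 CPM, 658, 548 and 608 CPM and 902, 945 and 733 CPM. It was 1.54-fold lower at 7 d, and at 28 d its libraries overlapped with sham and it did not pass (log2 FC -0.11, or 0.13 with library size alone).

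Slc16a1 and Slc16a3 encode the lactate carriers MCT1, known from heart muscle, and MCT4, typical of cells that export lactate. Slc16a1 went from 389, 368 and 391 CPM in the sham libraries to 83.4, 78.8 and 73.3 CPM at 7 d and 287, 219 and 167 CPM at 28 d. It was 4.87-fold lower at 7 d and 1.71-fold lower at 28 d, with no overlap. Slc16a3 rose from 2.62, 3.13 and 2.37 CPM to 43.7, 31.8 and 35.9 CPM at 7 d and stood at 16.1, 19.5 and 16.8 CPM at 28 d. It was 13.7-fold higher at 7 d (log2 FC 3.78 ± 0.17, edgeR adjusted p = 1.22e-07), the highest log2 FC of the 37 genes, 6.46-fold higher at 28 d, and 2.13-fold lower at 28 d than at 7 d. Its groups did not overlap in any comparison.

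Fbp2, the muscle form of fructose 1,6-bisphosphatase, which runs the phosphofructokinase step backwards, had the lowest log2 FC of the 37 genes at 7 d. It stood at 44.8, 48.4 and 50.2 CPM in the sham libraries, 0.674, 0.99 and 0.866 CPM at 7 d and 9.62, 2.79 and 2.61 CPM at 28 d. Every MI 7 d heart was at or under 1 CPM, and MI 28 d replicate 1 stood well above the other 28 d hearts. Fbp2 was 56.2-fold lower at 7 d (log2 FC -5.81 ± 0.50, edgeR adjusted p = 3.73e-06) and 9.62-fold lower at 28 d (-3.27 ± 0.41). Without MI 28 d replicate 1 the log2 FC was -4.15 at 28 d against sham and 1.66 from 7 d to 28 d, against 2.55 with it. The liver form Fbp1 was at 0 to 3 counts in each library and was not tested.

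Of the 6 genes of glycogen storage and use 5 were lower at 7 d and 1 was higher, where 35.4% of all tested genes were lower and 39% higher. Pygm, the muscle glycogen phosphorylase, stood at 2029, 2012 and 2062 CPM in the sham libraries, 315, 259 and 242 CPM at 7 d and 1120.0, 963 and 732 CPM at 28 d. Pygb, the brain form, which the heart also expresses, stood at 1362, 1310.1 and 1364 CPM, 402, 368 and 353 CPM and 1102, 958 and 659 CPM. For both genes 7 d was lowest and sham highest, with no overlap, and Pygm was 7.49-fold and Pygb 3.6-fold lower at 7 d. At 28 d Pygm was 2.17-fold and Pygb 1.49-fold lower, and Pygb did not pass there with library size alone (log2 FC -0.34, edgeR adjusted p = 0.0556). Pygl, the liver form, moved the other way, from 7.68, 8.18 and 8.37 CPM to 33.4, 31.8 and 63.2 CPM at 7 d and 25.5, 13.3 and 38.4 CPM at 28 d. All MI hearts lay above all sham hearts, and the highest MI hearts in each group were adipocyte-rich ones. Pygl was 5.3-fold higher at 7 d and 3.19-fold higher at 28 d (log2 FC 1.67), or 0.71 on the log2 scale at 28 d without the adipocyte-rich libraries. Its difference between 28 d and 7 d (-0.73, not passed) passed without MI 28 d replicate 3 (-1.14, edgeR adjusted p = 0.0133) and, with 1 MI 28 d library left, without the adipocyte-rich libraries (-1.29, 3.43e-05).

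Gys1, the muscle glycogen synthase, fell 3.33-fold from 229 ± 1.24 to 68.7 ± 8.77 CPM at 7 d and was 2.04-fold lower at 28 d, at 113 ± 25.4 CPM. Ugp2, which makes the UDP-glucose that glycogen synthase uses, fell 2.85-fold from 430.2 ± 30.8 to 151 ± 12.2 CPM at 7 d and was 1.55-fold lower at 28 d. Gbe1, the branching enzyme, fell 1.7-fold from 80.4 ± 4.49 to 47.3 ± 3.77 CPM at 7 d, and at 28 d stood at 86.1 ± 7.52 CPM and did not pass, except with library size alone (log2 FC 0.34, edgeR adjusted p = 0.00523).

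Ratios between genes of 1 step, taken within a library, do not depend on the scaling between libraries. Of 15 pairs, 13 had counts enough for both genes (those with Eno1 and Fbp1 were left out), and the muscle-type or heart-type gene was put first, or Hk1 in its pair with Hk3. In 37 of 39 comparisons of log2 ratios the groups did not overlap. The share for pairs of genes at large was not computed, so this count cannot be called particular to these pairs. Single genes did not overlap in 80.8% (7 d against sham), 66.4% (28 d against sham) and 59.8% (28 d against 7 d) of all tested genes. Without overlap the exact two-sided permutation test has its smallest possible p of 0.1 with 3 against 3. A p under 0.05 could thus not be reached, and the smallest Benjamini-Hochberg value was 0.105. The ratio of Slc16a1 to Slc16a3 was 62.9-fold lower at 7 d than in sham hearts and 10.7-fold lower at 28 d. Slc2a4 to Slc2a1 was 19.7-fold lower at 7 d and 7.95-fold lower at 28 d, and Pfkfb2 to Pfkfb3 was 27.1-fold and 6.02-fold lower. Pgam2 to Pgam1 was 12.8-fold and 3.78-fold lower, Ldhb to Ldha 6.29-fold and 2.85-fold, and Pfkm to Pfkl 4.38-fold and 2.39-fold. Within the phosphorylases the ratio of Pygm to Pygb was 2.09-fold lower at 7 d and 1.45-fold lower at 28 d, and that of Pygm to Pygl 37.2-fold and 6.32-fold lower. The exceptions were Hk2 to Hk1, where the MI groups overlapped (exact permutation p = 0.4), and Hk1 to Hk3, where 28 d overlapped with sham (exact permutation p = 0.3). The ratio of Pygm to Pygl at 28 d moved from -2.66 to -1.79 on the log2 scale without the adipocyte-rich libraries, and that of Aldoa to Aldoc from -3.67 to -4.61 at 7 d and from -2.02 to -2.88 at 28 d with 0.5 in place of 2 counts added.

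**Figure D3:**
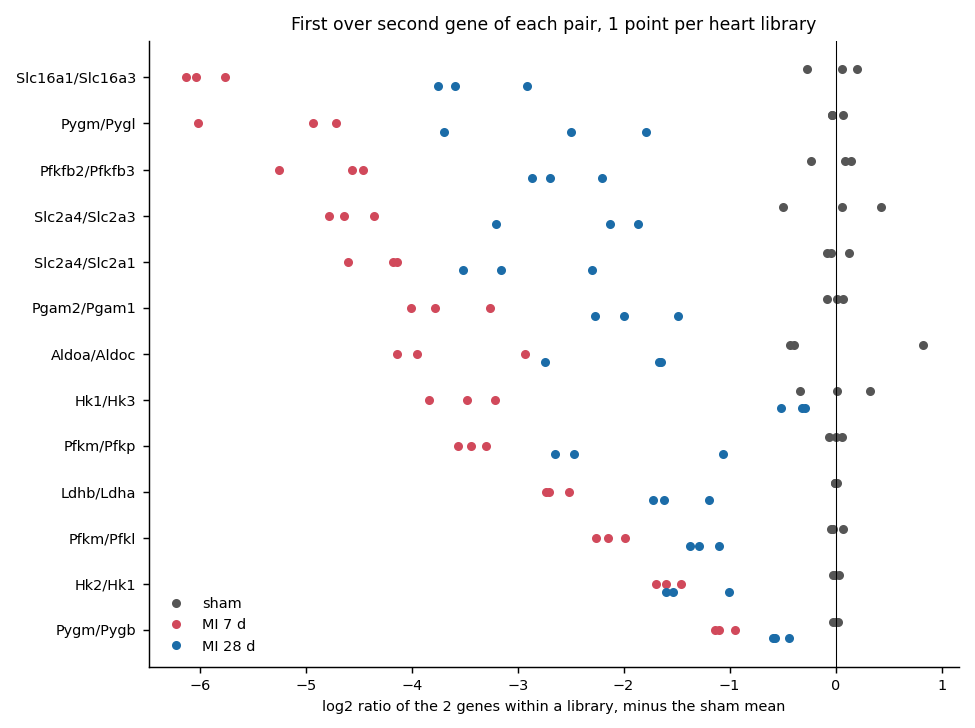
Log2 ratio of the first to the second gene of each of 13 pairs within a library, minus the sham mean (x axis, 1 point per library), for sham, MI 7 d and MI 28 d hearts. Points at 7 d lie to the left of the sham points for every pair, down to a mean of -5.97 for Slc16a1/Slc16a3, and for Hk1/Hk3 the 28 d points overlap with sham.

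Levels of different genes can be compared only per length, for which CPM were divided by the summed exon length in kilobases (GENCODE M21). On this scale Slc2a4 made up 91.5 ± 0.406% of the summed level of the 5 glucose carriers in sham hearts, 50.2 ± 3.21% at 7 d and 72.3 ± 7.13% at 28 d. The share of Slc2a1 was 2.8 ± 0.204%, 30.6 ± 3.6% and 18.3 ± 5.65%. Slc2a4 was thus the largest carrier in all 9 libraries. Ldhb held 83.8 ± 0.136% of the lactate dehydrogenase level in sham hearts, 45.1 ± 2.02% at 7 d, when Ldha was the larger in every library, and 64.3 ± 4.37% at 28 d. Pfkfb2 held 85.1 ± 1.58% of the Pfkfb level in sham hearts and 25.9 ± 4.65% at 7 d, where Pfkfb3 was largest with 40.6 ± 4.98%, and 64.1 ± 6.06% at 28 d. Hk2 held 70.4 ± 0.334%, 40.4 ± 1.13% and 47.7 ± 5.59% of the hexokinase level, and Hk3 0.442 ± 0.101%, 9.27 ± 1.54% and 1.04 ± 0.172%. The share of Hk1 was 29.1 ± 0.432%, 50.3 ± 2.67% and 51.3 ± 5.44%. Hk1 thus exceeded Hk2 in every MI 7 d library, while at 28 d Hk2 was still the larger in replicate 1. Slc16a3 went from 0.587 ± 0.104% of the 2 lactate carriers in sham hearts to 28.2 ± 2.69% at 7 d and 6.36 ± 1.7% at 28 d. Pfkm stayed the largest phosphofructokinase gene, with 93.6 ± 0.237%, 71.4 ± 1.92% and 83.5 ± 3.26%, and Pgam2 the largest mutase gene, with 97.8 ± 0.116%, 76.9 ± 4.55% and 91.8 ± 1.99%. Shares depended on the length used. With the longest coding transcript Hk2 held 56.5%, 28.3% and 33.4% in the 3 groups, Pfkm 88.9%, 54.9% and 72%, and Ldhb 77.3%, 35.2% and 54.4%, while the share of Slc2a4 at 7 d and 28 d and that of Pfkfb2 in all groups moved by less than 1 SD.

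**Figure D4:**
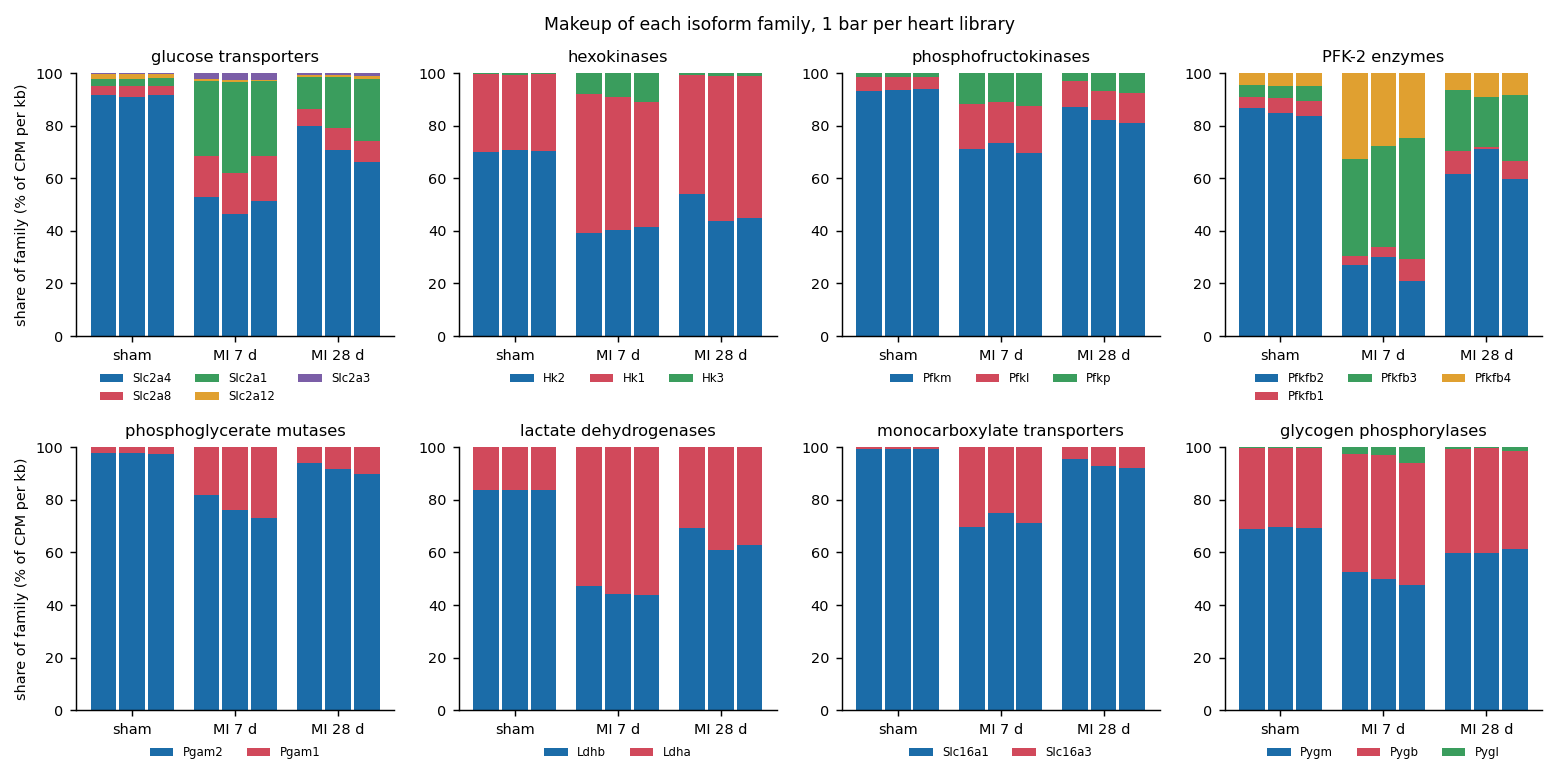
Share of each gene in the summed CPM per kilobase of its family (y axis, percent), 1 bar per library, in sham, MI 7 d and MI 28 d hearts for 8 families. The muscle-type or heart-type gene holds the largest part of every sham bar, and at 7 d Hk1, Ldha and Pfkfb3 exceed Hk2, Ldhb and Pfkfb2.

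Across the 39 genes the order of levels per kilobase of summed exon length also differed between the groups. Like the shares, this order depends on the length used. Gapdh has 4133 bases of summed exon and 1420 in its longest coding transcript, Aldoa 3710 and 1549, Ldhb 1570 and 1304, and Pgam2 840 by both. By the transcript length Gapdh, and not Ldhb, would be highest in sham hearts too, so the order below holds for the summed exon length only. In sham hearts Ldhb was highest at 1448 ± 25.5 CPM per kb, followed by Gapdh at 1146 ± 27.8. Eno3 at 1016 ± 14.1, Aldoa at 990.3 ± 4.08 and Pgam2 at 965 ± 31.1 came next, and Aldoa and Pgam2 differed by less than the SD of Pgam2. At 7 d Gapdh was highest at 473 ± 75.3, before Aldoa at 362 ± 43.4 and Pkm at 194 ± 23.5, and Pkm differed from Ldha (183 ± 16.5) by less than the SD of either. At 28 d Gapdh at 849.6 ± 116 and Aldoa at 761 ± 86.8 led and differed by less than the SD of Gapdh. Gapdh shares 82.5% of its transcript's 50-base stretches with transcripts of other genes, and Pgk1 shares 68%, Pgam1 41.5%, Pkm 34.4%, Ldhb 27%, Gpi1 25.3% and Pfkfb2 25.1%. How reads that map to several places were counted is not known, so the levels of these 7 genes are uncertain.

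As a yardstick, the 15 cardiomyocyte markers stood at 3.21% to 40.1% of their sham mean at 7 d (median 20.1%) and at 21% to 109.7% at 28 d (median 54.9%). Among the 37 tested genes those furthest below sham at 7 d were Fbp2 at 1.76% of sham, Eno3 at 7.17%, Slc2a12 at 7.76% and Ldhb at 10.4%. Pgam2 at 11%, Slc2a4 at 11.5%, Pygm at 13.3% and Pfkm at 13.9% came next. Of these, all but Fbp2 lay within the range of the markers. Hk2 (24.1%) and Aldoa (36.5%) kept a larger part of their sham level and also lay within that range. Gapdh (41.3%), Pkm (52%) and Hk1 (72.5%) lay above it. These values are a description, and no test was made of a gene against the markers.

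Genes that border on these steps were counted from lists outside the 39, and each count stands against the share of all tested genes, which at 7 d was 35.4% lower and 39% higher and at 28 d 25.6% lower and 29.5% higher. Of 11 genes for the entry of pyruvate into the mitochondrion, 10 were lower and 1 higher at 7 d, and 9 lower and 1 higher at 28 d. Pdk4 and Pdk2, kinases that shut off pyruvate dehydrogenase, fell 11.9-fold and 7.76-fold at 7 d, and the related kinase Pdk3 rose 5.38-fold. Of 23 tested glycogen regulators and further glycogen enzymes, 15 were lower and 6 higher at 7 d. Among them Nhlrc1, the malin gene, fell 6.51-fold, Phkg1, the muscle phosphorylase kinase subunit, fell 5.46-fold, and Stbd1, which ties glycogen to membranes, rose 3.35-fold. Of 26 genes of insulin signalling and GLUT4 traffic 15 were lower and 4 higher at 7 d, with the AMPK subunit gene Prkaa2 (3.83-fold) and Tbc1d4 (3.58-fold), a brake on GLUT4 release, the largest falls. In the pentose phosphate, hexosamine and polyol branches 9 of 19 rose and 7 fell at 7 d, near the shares of all tested genes, led by Tkt, the transketolase (3.96-fold higher), G6pdx, the entry enzyme of the pentose phosphate route (3.80-fold higher), and Sord, sorbitol dehydrogenase (6.02-fold lower).

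Of 20 transcriptional regulators of glycolysis 12 were lower and 4 higher at 7 d. Myc, a driver of glycolytic genes, was 5.25-fold higher, while Ppargc1a, the mitochondrial coactivator PGC-1 alpha, was 7.97-fold lower and the glucose-sensing factor Mlxipl 7.45-fold lower. Of 15 tested hypoxia targets outside glycolysis 5 rose and 6 fell at 7 d, near the shares of all tested genes (39% and 35.4%), with Car9, a carbonic anhydrase, 9.75-fold higher and Vegfa, the vascular growth factor, 4.83-fold lower. At 28 d 9 of the 15 were higher and 2 lower, against 29.5% and 25.6% of all tested genes. All 4 tested Slc2a family genes outside the 39 were higher at 7 d, among them Slc2a13 (10.2-fold) and Slc2a6 (8.05-fold). Of 13 further genes of glycolysis, gluconeogenesis and lactate transport 7 were lower and 3 higher at 7 d. Emb, which encodes a partner protein of the lactate carriers and no enzyme, had the largest rise past the threshold (20.1-fold).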

How the data were processed

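The members and all gene lists were chosen with earlier results of these data known. RNA was sequenced from heart samples of 9 mice in 3 groups of 3, named in the sample titles. Reads were processed with Trim Galore, STAR and featureCounts on the mm10 build, per the submitters' processing notes, which give no versions; which annotation and strand setting were used, and how reads with several matches were handled, is not given in the sources used here. Deposited values are whole-number read counts per gene symbol, which the authors had not normalized; 5629 of 24964 symbols were at 0 in all libraries. Counts of the 3 sham libraries varied beyond sampling error (chi-square over degrees of freedom 1.64 to 1.76), but far less than those within the MI groups (17.9 to 67.4). These values do not show whether the sham libraries are as independent as the MI libraries. All were kept as replicates, and a fit with the sham libraries summed to 1 was also run.

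Tests used R 4.3.3 and edgeR 4.0.16. filterByExpr (minimum count 10 and minimum total 15) kept 14347 genes, and libraries were scaled by TMM (factors 0.869 to 0.881 in sham, 1.08 to 1.13 at 7 d and 0.985 to 1.1 at 28 d). All 9 libraries entered 1 model with a mean for each group. Each of the 3 comparisons had a two-sided quasi-likelihood F test, adjusted by Benjamini-Hochberg across the 14347 genes, with a threshold of 0.05. The standard error is the absolute log2 FC over the square root of F. Ratios within a library were log2 of (count + 2) of both genes, in place of CPM with that prior count as first worded. Levels per kilobase used the union of GENCODE M21 exons. Stretches of 50 bases of each gene's longest M21 transcript were looked up in the transcripts of all other genes. Start-site windows and gene symbols came from RefSeq on GRCm38.p6. The code was tested on simulated data.

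All 39 members are named. Values in every library are given for genes of the isoform pairs and for genes past the threshold at 7 d with a log2 FC of at least 2 in size. For lists outside the members the rule took the 2 largest rises and 2 largest falls with a mean of at least 1 CPM, and some of those it named are left out. Alternatives changed the tool (DESeq2 1.42.0, or limma 3.58.1 voom with weights by group), the scaling (size factors as in DESeq2, or library size alone), the filter (none, or at least 1 CPM in 3 libraries with a mean of at least 2 CPM), or the libraries (only those compared, sham summed to 1, each library left out in turn, or without the 3 called adipocyte-rich, which had more than 100 CPM of the adiponectin gene Adipoq). The replicate number was also tried as a block. Family shares with another gene length, and with libraries left out, were added after seeing the data. The labels give no batch, and depth sets counting error only.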

Additional observations from a re-analysis of the deposited data

Results flagged for a closer look

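MI 28 d and MI 7 d hearts differed in 28 of the 37 tested genes by edgeR, against 55.2% of all tested genes. For these 28 genes the changes against the shared sham libraries thus differed between the times. The values that follow are log2 FC of 28 d against 7 d. Among carriers they were 0.33 for Slc2a1, 1.69 for Slc2a4, 1.62 for Slc2a12, 1.51 for Slc16a1 and -1.09 for Slc16a3. From hexokinase to the Pfkfb enzymes they were 0.88 for Hk1, 1.11 for Hk2, -2.30 for Hk3, 0.74 for Gpi1, 0.73 for Pfkl, 1.62 for Pfkm, 1.71 for Pfkfb2, -1.44 for Pfkfb4 and 2.55 for Fbp2. From aldolase to lactate dehydrogenase they were 1.07 for Aldoa, 0.86 for Tpi1, 0.84 for Gapdh, 0.64 for Pgk1, 1.86 for Pgam2, 1.76 for Eno3, 0.55 for Pkm, 0.51 for Ldha and 1.66 for Ldhb. For glycogen genes they were 0.71 for Gys1, 0.86 for Gbe1, 1.79 for Pygm, 1.28 for Pygb and 0.88 for Ugp2.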

How the results depend on the processing

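Counts of genes at 7 d moved by less than 1.5 times under every alternative run. At 28 d against sham, summing the sham libraries left 5 of the 37 genes higher and 11 lower, and 1828 and 1889 of all genes. There library size alone gave 6479 genes higher and 2278 lower, against 4233 and 3673 with TMM. The count of members lower at 28 d than at 7 d ranged from 3 to 6 when single libraries were left out and was 7 without the adipocyte-rich libraries, which leaves 1 MI 28 d library. Replicate numbers did not pair the samples (correlations of deviations -0.09 to 0.30, and 4 of 9 libraries correlated best with their own number); with the number as a block 5 members were lower at 28 d than at 7 d in place of 3, with Pfkfb3 (-0.46, edgeR adjusted p = 0.0101) and Pygl (-0.76, 0.0222) added, and Pfkp did not pass at 7 d (0.59, 0.0525). All 312 alternative ratios kept their direction. No p was computed for them, and 3 against 3 cannot pass the threshold.

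Signs changed only in results that had not passed. With library size alone Slc2a8 had a log2 FC of 0.21 at 7 d, 0.14 at 28 d and -0.0722 between them, Pgk1 0.23 and Ldha 0.13 at 28 d, and Pgam1 -0.0159 between 28 d and 7 d. Pfkl at 28 d was -0.0205 with DESeq2, -0.0204 with its size factors and -0.0218 with summed sham libraries. Pgk1 at 28 d was 0.0025 with the stricter filter, 0.0031 with only the libraries compared and 0.0899 without the adipocyte-rich libraries, where Ldha was 0.0122. Leaving out single libraries gave ranges at 28 d of -0.0841 to 0.14 for Pfkl, -0.7889 to 0.19 for Pfkfb1 and -0.0864 to 0.11 for Pgk1. Between 28 d and 7 d the ranges were -0.0928 to 0.1237 for Slc2a8 (-0.018 with only the libraries compared), -0.0569 to 1.09 for Pfkfb1 and -0.61 to 0.84 for Eno2. Without the adipocyte-rich libraries, with 1 MI 28 d library left, Pfkfb1 was -1.39 and Eno2 -0.30 there; these are given as values only, since the libraries left out were those where Pfkfb1 was high. The cause of these moves was not tested. Depth limits Eno1 and Fbp1, with 0 to 6 counts over a group, and Aldoc, with 6 over the sham libraries.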
